A study of Mus musculus with 72 samples.

Results

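The question was whether removing tryptophan from the diet changed gene expression in the suprachiasmatic nucleus (SCN) by the same amount in mice kept in a light-dark cycle (LD) and in mice kept in constant darkness (DD). The measure was the interaction of diet and light: the difference between -Trp and control (Ctrl) libraries in DD minus the same difference in LD. All 72 of the 72 SCN libraries entered, 18 in each of the 4 groups formed by diet (Ctrl or -Trp) and light (LD or DD). Each group held 3 libraries at each of 6 times, 0, 4, 8, 12, 16 and 20 h. The animals were male C57BL/6 mice, 8 weeks old at the start, housed singly for 1 week under their light schedule and then fed either a tryptophan-depleted diet (-Trp) or a nitrogen-matched control diet (Ctrl) for 2 weeks under the same schedule. The groups shared sex, strain and housing. Of 24883 rows in the tables, 14425 with a mean of at least 0.5 FPKM (fragments per kilobase of transcript, scaled to the number of mapped fragments) were tested.

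Tryptophan is an essential amino acid, and it is the precursor of serotonin, of melatonin and of the kynurenine pathway that leads to NAD. The SCN is the master circadian clock of the hypothalamus, receives light from the retina and a dense serotonin input from the raphe nuclei, and signals through peptides such as vasopressin and VIP. Mice cannot make tryptophan, so a diet without it lowers the supply for protein and serotonin synthesis. An interaction below 0 means that the diet difference was lower in DD than in LD, and an interaction above 0 that it was higher in DD. Values are on the log2(scaled FPKM + 0.5) scale, on which low genes change less than their ratio, and a gene was called where its Benjamini-Hochberg adjusted p from limma was under 0.05.

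Libraries were placed in groups by the column order of the study's supplementary table of SCN rhythms, since the column names of the deposited tables give another order. All 36 control columns of that supplementary table had equal values (within a relative 1e-04) in 1 deposited column each, at the place the order gives, over up to 1939 genes in LD and 134 in DD, and the next best column matched at no more than 0.806% of the genes. The other 36 libraries, all -Trp, were placed by continuing the same shift and could not be checked by value. In this order the sum of FPKM was 403066 to 524705 in every LD library and 317417 to 353587 in 35 DD libraries, with 411944 in -Trp DD 4 h replicate 2. Light and this range therefore cannot be told apart. SCN markers were present in all groups, with median levels of 14.7 to 20.3 FPKM for Vip and 322 to 454 FPKM for Avp. Lhx1, a further SCN marker, was low, with medians of 0.896 to 1.56 FPKM. Avp is also made by neurons outside the SCN, so its level does not show how much of the tissue was SCN. Six6 differed by light, with medians of 1.58 FPKM (Ctrl) and 1.41 (-Trp) in LD and 4.03 (Ctrl) and 3.92 (-Trp) in DD. The summed level of 9 preoptic and anterior hypothalamus markers had medians of 126 FPKM (Ctrl) and 125 (-Trp) in LD and 39.7 (Ctrl) and 43.3 (-Trp) in DD. The cause of these differences was not tested. The depth of the libraries is not known, so the precision comes from the spread between them. The tissue was bulk RNA, in which fewer cells of a type and less RNA per cell cannot be told apart.

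The effect of the diet differed between LD and DD for 1012 genes, 7.02% of those tested. The interaction was above 0 for 297 genes (2.06%) and below 0 for 715 (4.96%). Most of these differences were small. The median interaction was 0.23 among the 297 and -0.25 among the 715, against 0.01 over all genes, and 5 called rows exceeded 1 in size, 3 of them rows whose symbol occurs more than once, which are not named further. The median standard error of the interaction was 0.0791. In LD alone the diet changed 97 genes (0.672%), 43 higher and 54 lower, and in DD alone it changed 2093 genes (14.5%), 1091 of them higher. The average of both effects was called for 522 genes (3.62%).

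**Figure D1:**
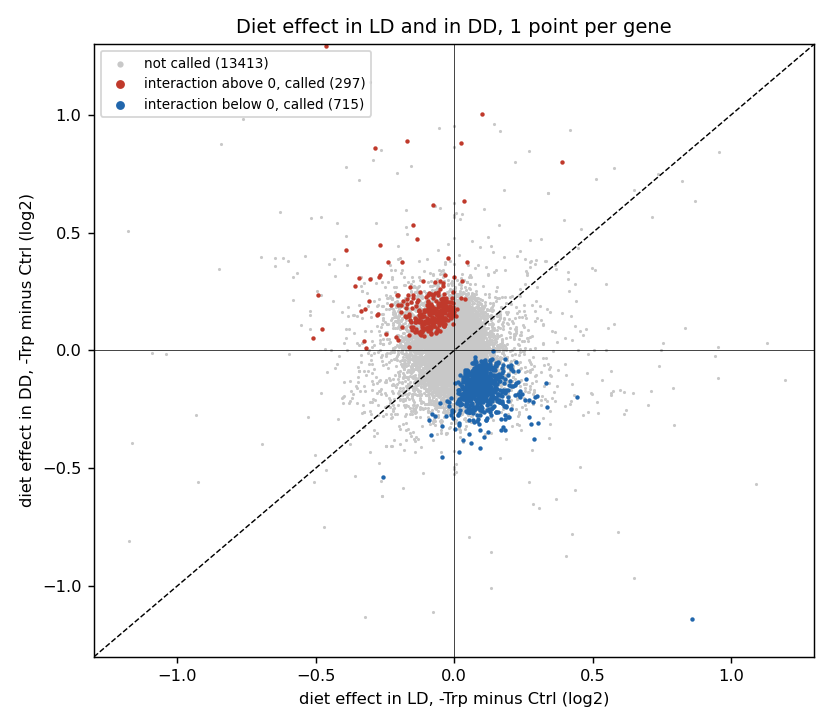
Diet effect in LD (horizontal axis) against diet effect in DD (vertical axis), both -Trp minus Ctrl on the log2 scale, with 1 point per gene; grey points were not called, red points had an interaction above 0 and blue points below 0. The dashed line marks equal effects, most called genes lie in the upper left and lower right, and 12 genes lie outside the axes.

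Most called genes had diet effects of opposite sign in LD and DD. Of the 715 genes with an interaction below 0, 697 had a positive estimate in LD and a negative one in DD, with median effects of 0.09 in LD and -0.16 in DD. Of the 297 genes above 0, 287 had a negative estimate in LD and a positive one in DD, with medians of -0.08 and 0.16. Over all genes tested the signs were opposite for 58.1%. The interaction is the DD effect minus the LD effect, so choosing genes by it favours opposite signs. The share among called genes is therefore a description and not a like comparison with that over all genes. The estimate in DD was the larger in size for 559 of the 715 and 238 of the 297. The effect in DD passed the test by itself for 508 and 201 of them, the effect in LD for 15 and 9, both for 3 and 1, and neither for 195 and 88.

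The genes with the smallest p below 0 serve synapses, the cytoskeleton and energy supply, among other roles. They were Dlg4, Pcdhga11, Pygm, Hk1, Grn, Ephb1, Kdm4b, Cnnm1, Crtac1 and Map1a, each with an adjusted p of 0.00234. For all 10 the interaction was below 0 at each of the 6 times. They were chosen by the average over these same times, which favours the same sign at each. Of all 715 genes called below 0, 711 were below 0 at 5 or 6 times. Dlg4 (chr11:70016942-70047522, mm10) encodes PSD-95, the main scaffold of the glutamatergic postsynaptic density. Its level was 99.4 to 133 FPKM with a median of 123.1 in Ctrl LD and 119 to 215 FPKM with a median of 132 in -Trp LD. In DD it was 86.2 to 145 FPKM with a median of 104 in Ctrl and 75 to 106 FPKM with a median of 86.2 in -Trp. The ranges overlapped between the diets in both light conditions, with the -Trp median the higher in LD and the lower in DD. The diet effect was 13.6% in LD (adjusted p = 0.0831) and Dlg4 fell by 15% in DD (adjusted p = 0.00278), for an interaction of -0.42 ± 0.07 (SE). Its highest values in -Trp LD (20 h replicate 3) and Ctrl DD (12 h replicate 1) came from libraries high in cortex and striatum markers, described below. Without the 3 libraries highest in these markers the interaction was -0.34 (adjusted p = 0.00199).

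Map1a, a microtubule-associated protein of mature neurons, had an interaction of -0.50 ± 0.10. Its medians were 59.1 FPKM (Ctrl) and 64.8 (-Trp) in LD and 72.4 (Ctrl) and 55 (-Trp) in DD, and it fell by 20.1% in DD (adjusted p = 0.00152). The ranges in DD were 57.4 to 97.5 FPKM in Ctrl and 50 to 75.8 in -Trp, which overlap. Pcdhga11, a gamma-protocadherin of neuronal cell adhesion, had an interaction of -0.50 ± 0.09 and fell by 20.8% in DD (adjusted p = 4.99e-04). Ephb1, a receptor for ephrin-B ligands, had an interaction of -0.36 ± 0.07 and fell by 18.4% in DD (adjusted p = 4.8e-05). Its LD effect was 4.77% (adjusted p = 0.643).

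Hk1 and Pygm act at the entry of glucose into glycolysis and in the breakdown of glycogen. Hk1, the hexokinase of brain, ranged from 61.1 to 85.8 FPKM (Ctrl) and 70.6 to 98.6 (-Trp) in LD, and from 50.5 to 72.8 (Ctrl) and 40.5 to 64.7 (-Trp) in DD. The ranges overlapped between the diets, and the interaction was -0.38 ± 0.07. Pygm, a glycogen phosphorylase, passed the test in each light condition with opposite signs. It rose by 17.4% in LD (adjusted p = 0.00353) and fell by 8.88% in DD (adjusted p = 0.0443), for an interaction of -0.37 ± 0.07. Kdm4b, a histone H3 lysine demethylase, did the same: it rose by 11.9% in LD (adjusted p = 0.0127) and fell by 7.63% in DD (adjusted p = 0.0291), for an interaction of -0.28 ± 0.05.

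Grn encodes progranulin, a secreted and lysosomal glycoprotein. It ranged from 20 to 27 FPKM (Ctrl) and 21.9 to 30.8 (-Trp) in LD, and from 17.5 to 26.4 (Ctrl) and 13.8 to 21.9 (-Trp) in DD. It fell by 17.3% in DD (adjusted p = 1.03e-04) and had an interaction of -0.36 ± 0.07. Crtac1, an extracellular matrix protein, had an interaction of -0.37 ± 0.07, and Cnnm1, of a family of proteins linked to magnesium transport, one of -0.31 ± 0.06. Both fell in DD, by 16% and 13.6%.

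The genes with the smallest p above 0 serve membrane traffic, protein turnover, transcription and mitochondria, among other roles. They were Rab33b, Gm16702, Creg1, Psmd10, Znhit3, Dnajc24, Tbp, Tmem216, Coa6 and Itm2b, with adjusted p-values of 0.00234 to 0.00503. The interaction was above 0 at all 6 times for 8 of them and at 5 times for Creg1 and Coa6. Here too the choice by the average favours this, and 283 of all 297 genes called above 0 were above 0 at 5 or 6 times. Rab33b, a small GTPase of the Golgi, ranged from 12.2 to 15.6 FPKM (Ctrl) and 11 to 14.6 (-Trp) in LD, and from 8.82 to 11.3 (Ctrl) and 10.3 to 12.1 (-Trp) in DD. It rose by 9.34% in DD (adjusted p = 0.00344), its LD difference was -6.08% (adjusted p = 0.155), and the interaction was 0.22 ± 0.04. In both light conditions the ranges of the diets overlapped.

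Psmd10, a chaperone of proteasome assembly also called gankyrin, ranged from 14.4 to 20 FPKM (Ctrl) and 14.4 to 19 (-Trp) in LD, and from 8.51 to 11.7 (Ctrl) and 10.1 to 13.9 (-Trp) in DD. It rose by 15.7% in DD (adjusted p = 7.65e-04), and its interaction was 0.28 ± 0.06. Coa6, an assembly factor of cytochrome c oxidase, rose by 18.3% in DD (adjusted p = 0.00197), with an interaction of 0.33 ± 0.07. Tbp, the TATA-binding protein of basal transcription, rose by 12.4% in DD (adjusted p = 0.00546), with an interaction of 0.27 ± 0.06. Dnajc24, which acts in diphthamide synthesis, instead fell by 12.1% in LD (adjusted p = 0.0202), with a DD effect of 7.26% (adjusted p = 0.113) and an interaction of 0.29 ± 0.06. The others had interactions of 0.37 ± 0.07 for Gm16702, 0.25 ± 0.05 for Creg1, 0.30 ± 0.07 for Znhit3, 0.30 ± 0.07 for Tmem216 and 0.18 ± 0.04 for Itm2b.

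**Figure D2:**
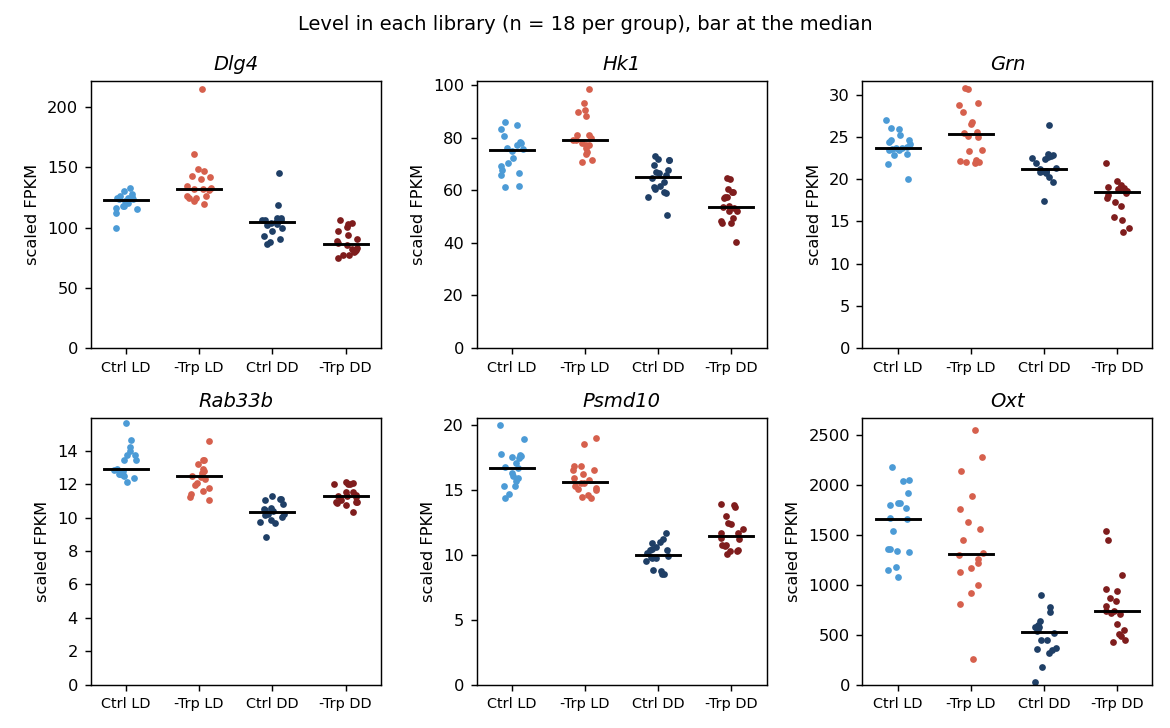
Level of 6 genes in each library as scaled FPKM (vertical axis from 0), 18 libraries per group, with a bar at the median of each group. Dlg4, Hk1 and Grn lie higher in -Trp than Ctrl by median in LD and lower in DD, and Rab33b, Psmd10 and Oxt the other way round.

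The largest interactions belonged to other genes, and their standard errors were wider. Among called rows with a unique symbol they were, below 0, Pcdhgc5 (-0.67 ± 0.19), Wfs1 (-0.64 ± 0.21), Phactr1 (-0.61 ± 0.16), Sipa1l1 (-0.59 ± 0.17) and Ngef (-0.58 ± 0.17), with adjusted p-values of 0.0141 to 0.047. These genes act in neuronal adhesion, in the endoplasmic reticulum and in actin and small GTPase signalling. Phactr1 ranged from 29.3 to 46.7 FPKM (Ctrl) and 29.4 to 147 (-Trp) in LD, and from 26.1 to 73.1 (Ctrl) and 20 to 27.4 (-Trp) in DD. Markers of cortex and striatum were high in a few libraries. Their summed level over 7 markers was 679 FPKM in -Trp LD 20 h replicate 3, 441 in Ctrl DD 12 h replicate 1 and 306 in -Trp LD 0 h replicate 2, and 154 in the next library, Ctrl LD 0 h replicate 3. The medians of the sum were 36.8 FPKM (Ctrl) and 47.2 (-Trp) in LD and 39.7 (Ctrl) and 40.8 (-Trp) in DD. Ppp1r1b, a striatal phosphoprotein among these markers, had an interaction of -0.94 ± 0.42 that did not pass (adjusted p = 0.145), and -0.45 without the 3 highest libraries.

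Without these 3 libraries all 5 genes passed, with adjusted p-values of 0.00345 to 0.0294. Their interactions were then -0.37 for Pcdhgc5, -0.48 for Wfs1, -0.37 for Phactr1, -0.34 for Sipa1l1 and -0.33 for Ngef. Over all genes 1107 were then called, 263 above 0 and 844 below 0, among them 771 of the 1012 in the same direction. Of the 71 called genes named here, 12 lost their call without these libraries: Mir6340, Ucn3, Tef, Grin1, Cacna1i, Slc43a2, Rps16, Rpl17, Ndufc2, Ndufv2, Hist1h4h and Rarres2. In other fits Pcdhgc5, Wfs1, Phactr1, Sipa1l1 and Ngef lost theirs. All 5 did so with length and GC trends removed (adjusted p = 0.0556 to 0.144), as described below, and when 4 or 12 h was left out. Wfs1 also lost its call in 34 of 72 fits that left out a single library.

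Above 0 the largest interactions were those of Mir6340 (4.85 ± 1.56), Oxt (1.14 ± 0.35), Gm8773 (0.90 ± 0.26), Crh (0.86 ± 0.25) and Ucn3 (0.82 ± 0.26). Mir6340 was listed at 0 in at least 1 library of every group, and its medians were 53.4 FPKM (Ctrl) and 0 (-Trp) in LD and 0 (Ctrl) and 52.4 (-Trp) in DD. An exact 0 in this kind of file can be a failed estimate. Oxt, Crh and Ucn3 encode oxytocin, corticotropin-releasing hormone and urocortin 3, peptides of nuclei around the SCN. Oxt ranged from 1077 to 2186 FPKM (Ctrl) and 260 to 2549 (-Trp) in LD, and from 23.3 to 904 (Ctrl) and 433 to 1539 (-Trp) in DD, and rose by 81.2% in DD (adjusted p = 0.0159). The lowest Oxt values of -Trp LD and of Ctrl DD came from 2 of the libraries high in cortex and striatum markers, -Trp LD 20 h replicate 3 and Ctrl DD 12 h replicate 1. Its interaction was 0.72 without the 3 libraries (adjusted p = 0.0304). Oxt lost its call with length and GC trends removed (adjusted p = 0.0778), as described below. It also lost its call with no filter and when 4, 8, 12, 16 or 20 h was left out. Crh had medians of 8.18 FPKM (Ctrl) and 8.46 (-Trp) in LD and 0.754 (Ctrl) and 2.31 (-Trp) in DD, and rose by 84.3% in DD on the scale with 0.5 added (adjusted p = 8.67e-04). The interaction of Crh lost its call with length and GC trends removed (adjusted p = 0.0765) and when 4, 8, 12 or 16 h was left out. Gm8773, whose mean was under 1 FPKM, lost its call with these trends removed (adjusted p = 0.141) and without 0, 4, 8 or 16 h. Ucn3 lost its call in 11 of 21 alternative fits, among them that with these trends removed (adjusted p = 0.102). It also did so in 17 of 72 fits that left out a single library.

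Oxt and Crh also stand in the list of 6 markers of supraoptic and paraventricular neurons, and they are its 2 called members. All 6 had an interaction above 0 and the median was 0.57, against 7723 of 14425 genes above 0 over all tested. Without the 3 libraries high in cortex and striatum markers 5 of the 6 were above 0 and the median was 0.30, and without 12 h it was also 0.30, with none called. The summed level, to which Oxt adds the most, ranged from 1217 to 2421 FPKM (Ctrl) and 316 to 2749 (-Trp) in LD, and from 33.3 to 1103 (Ctrl) and 506 to 1720 (-Trp) in DD. Its medians were 1888 FPKM (Ctrl) and 1522 (-Trp) in LD and 626 (Ctrl) and 896 (-Trp) in DD. None of the markers had a median of 0. The part of neighbouring tissue in these values was not tested.

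Windows before the transcription starts are shown for leading genes, those with the smallest p in either direction that lie off the chromosome of Pcdhga11. For 2 of these genes in each direction that have a single RefSeq promoter, the 250 bases upstream of the start (GRCm38.p6) read as follows 5′ to 3′, with GC boxes (GGGCGG, either strand) in capitals. Pygm lies on the plus strand at chr19:6384158-6384407, Grn on the plus strand at chr11:102430257-102430506, Rab33b on the plus strand at chr3:51483716-51483965 and Gm16702 on the minus strand at chr17:8389469-8389718.
Pygm: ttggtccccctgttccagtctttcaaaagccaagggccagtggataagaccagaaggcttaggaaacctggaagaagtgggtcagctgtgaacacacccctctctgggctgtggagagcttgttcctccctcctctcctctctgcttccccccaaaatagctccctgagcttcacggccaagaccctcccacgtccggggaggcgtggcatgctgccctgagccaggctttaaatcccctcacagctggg
Grn: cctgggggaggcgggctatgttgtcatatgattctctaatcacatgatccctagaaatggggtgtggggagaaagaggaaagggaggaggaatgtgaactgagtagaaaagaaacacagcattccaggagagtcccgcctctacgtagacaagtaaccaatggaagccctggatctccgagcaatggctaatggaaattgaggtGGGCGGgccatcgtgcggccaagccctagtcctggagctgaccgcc
Rab33b: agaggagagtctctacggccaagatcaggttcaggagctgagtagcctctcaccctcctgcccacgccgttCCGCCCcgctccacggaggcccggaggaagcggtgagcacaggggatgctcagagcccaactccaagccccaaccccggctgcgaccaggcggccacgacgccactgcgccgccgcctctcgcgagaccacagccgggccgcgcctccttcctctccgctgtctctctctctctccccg
Gm16702: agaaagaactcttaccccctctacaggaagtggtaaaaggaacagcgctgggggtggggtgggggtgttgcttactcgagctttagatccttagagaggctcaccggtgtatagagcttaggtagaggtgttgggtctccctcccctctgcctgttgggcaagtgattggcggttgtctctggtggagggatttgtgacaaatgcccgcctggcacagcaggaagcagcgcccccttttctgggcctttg
Grn and Rab33b have 1 GC box each and the other two none, and none of the 4 windows holds an E-box (CACGTG), a cAMP response element (TGACGTCA) or a TATA box written as TATAAA, on either strand. Rab33b has 23 CpG, Grn 8, Gm16702 6 and Pygm 4.

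Over the called genes with 1 RefSeq promoter, the window held a GC box for 69.1% of 385 genes below 0 and 54.8% of 188 genes above 0, against 61% of 8542 genes tested. Its median GC content was 64.8%, 56.4% and 60.4% in the same order. An E-box was present in 7.53%, 5.85% and 8.49%, a cAMP response element in 3.38%, 2.66% and 2.93%, and TATAAA in 5.71%, 4.79% and 6.04%. These shares are descriptions of letters in a fixed window.

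The transcripts of the called genes differed in length and base composition too. The longest annotated transcript (GENCODE M21) had a median of 4566 bases and 55.4% GC for the genes below 0, of 2155 bases and 45.2% GC for those above 0, and of 3358.5 bases and 49.9% GC over all genes tested, with a value for 97.5%, 94.9% and 96.1% of them. Levels in single libraries followed the same properties. The slope of a library's log2 levels, centred per gene, on log2 transcript length was on average -0.137 (Ctrl) and -0.119 (-Trp) in LD and 0.158 (Ctrl) and 0.0974 (-Trp) in DD, per SD of length, with SDs of 0.0457 to 0.0684 (n = 18 each). That on GC content was 0.0312 (Ctrl) and 0.0652 (-Trp) in LD and -0.0256 (Ctrl) and -0.0707 (-Trp) in DD, with SDs of 0.0398 to 0.0724. Both slopes had an interaction of their own, of -0.0785 (p = 0.00539) and -0.0791 (p = 0.00294), by a two-sided permutation of the diets within light and time (100000 resamples, adjusted p = 0.00539 for both of the 2 tests). The lowest length slope of DD, -0.0868, was that of -Trp DD 4 h replicate 2. When cubic trends on length and GC were removed from each library, 278 genes were called, 59 above 0 and 219 below 0, and 200 of them were among the 1012. All 10 leading genes below 0 still passed, with adjusted p-values of 6.45e-04 to 0.0218, but with smaller estimates, among them Kdm4b at -0.14, Cnnm1 at -0.18 and Map1a at -0.32. Of the 10 leading genes above 0, Rab33b, Gm16702, Creg1 and Tbp passed and 6 did not, and of the 71 called genes named here 46 lost their call. The part of length and GC in the called genes was not tested further.

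**Figure D3:**
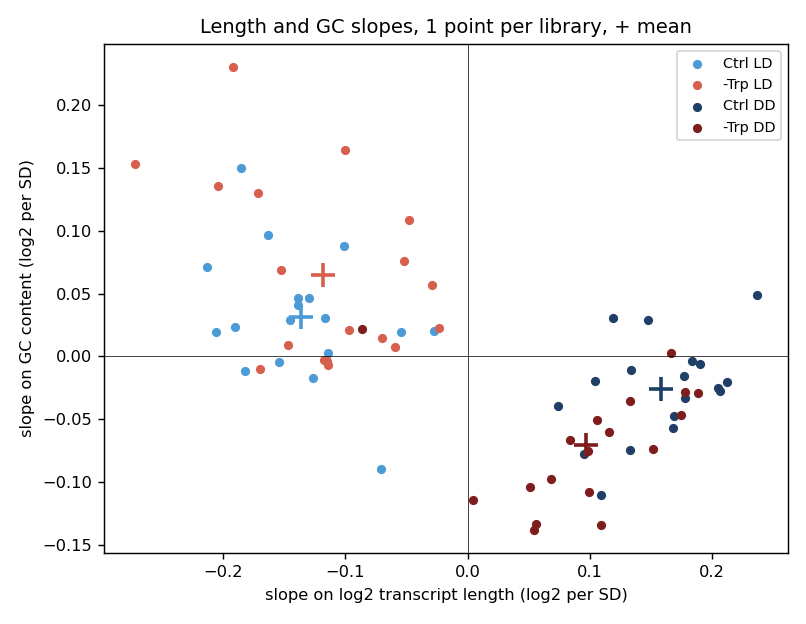
Slope of each library's centred log2 levels on log2 transcript length (horizontal axis) and on GC content (vertical axis), both per SD, with 1 point per library and a plus at each group's mean (n = 18). LD libraries lie to the left and DD libraries to the right, except -Trp DD 4 h replicate 2 at -0.0868; within DD the -Trp mean lies lower on both axes, and within LD higher on both.

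Gene lists drawn from the biology of the clock, of amino acids and of this tissue are described by counts and medians. Each count is to be read against the 7.02% called over all genes tested, 2.06% above 0 and 4.96% below 0, and each median against 0.01. Among the 10 core clock repressors 2 were called, both below 0, with a median interaction of -0.08. With length and GC trends removed 1 was called and the median was -7.7e-04. Cry2, a cryptochrome, had medians of 24.2 FPKM (Ctrl) and 26 (-Trp) in LD and 25.3 (Ctrl) and 23.5 (-Trp) in DD. It was higher on -Trp at 6 of 6 times in LD and at 0 of 6 in DD, with an interaction of -0.27 ± 0.05 (adjusted p = 0.00234), and it fell by 8.94% in DD (adjusted p = 0.013). Per1, a period gene induced by light, had an interaction of -0.28 ± 0.09 (adjusted p = 0.038), with effects of 15.3% in LD (adjusted p = 0.110) and -5.07% in DD (adjusted p = 0.421). Among 7 clock output factors all 7 estimates were below 0 and Tef, a PAR-bZIP transcription factor, was called (-0.17 ± 0.05, adjusted p = 0.0445). With length and GC trends removed Per1 and Tef lost their call (adjusted p = 0.299 and 0.334), and no output factor was called by limma. When single libraries were left out in turn, Per1 lost its call in 18 of 72 fits and Tef in 25. None of 9 core clock activators was called by limma, 7 of them were above 0, and the median was 0.10. Npas2, a partner of BMAL1, had the lowest of these, -0.39 ± 0.16 (adjusted p = 0.106), and -0.15 without the 3 libraries high in cortex and striatum markers. Timeless had an interaction of -0.07 ± 0.12 (adjusted p = 0.725), with a 95% interval of -0.31 to 0.16.

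No SCN peptide or peptide receptor of 16 passed, with a list median of 0.34. Without the 3 libraries high in cortex and striatum markers the median was 0.15, and 1 of 17 then tested was called, below 0. Avp, vasopressin of the SCN shell, ranged from 212 to 891 FPKM (Ctrl) and 43.6 to 968 (-Trp) in LD, and from 20.5 to 496 (Ctrl) and 135 to 720 (-Trp) in DD. Its ranges overlapped between the diets, and its interaction was 1.01 ± 0.37 (adjusted p = 0.0745). Without those 3 libraries it was 0.63 (adjusted p = 0.122). Vasopressin is also made by the supraoptic and paraventricular neurons whose markers were given above. Of 8 SCN identity factors none was called by limma and the median was 0.13, and of 13 immediate early genes none was called and the median was -0.13. These medians were 0.044 and -0.053 without the 3 libraries.

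Of the genes of tryptophan use, 18 of the kynurenine and serotonin list were tested and none was called. Maoa, which degrades serotonin, had an interaction of 0.21 ± 0.08 (adjusted p = 0.0736) with a 95% interval of 0.06 to 0.36, and 0.14 without the 3 libraries high in cortex and striatum markers. In NAD synthesis and use, 1 of 19 was called: Nadsyn1, the last enzyme of NAD synthesis from nicotinic acid and tryptophan, with 0.31 ± 0.08 (adjusted p = 0.0118). Its medians were 1.98 FPKM (Ctrl) and 1.83 (-Trp) in LD and 2.52 (Ctrl) and 2.81 (-Trp) in DD. Of 20 aminoacyl-tRNA synthetases 1 was called, Wars, which charges tRNA with tryptophan (-0.18 ± 0.05, adjusted p = 0.0251). Wars ranged from 31.1 to 43.8 FPKM (Ctrl) and 32.7 to 42.5 (-Trp) in LD, and from 24.4 to 29.8 (Ctrl) and 20.8 to 30.7 (-Trp) in DD, and fell by 7.23% in DD (adjusted p = 0.0412). Its LD effect was 5.28% (adjusted p = 0.427).

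Among 17 genes of the ATF4 response to amino acid shortage 1 was called. Chac1, which breaks down glutathione, rose by 16.6% in LD (adjusted p = 0.0116), with a DD effect of -3.43% (adjusted p = 0.515) and an interaction of -0.27 ± 0.07 (adjusted p = 0.0134). Of 21 amino acid transporters 3 were called, all below 0, against 4.96% below 0 over all genes, with a list median of -0.10. They were Slc36a1, a proton-coupled transporter of small amino acids (-0.33 ± 0.08), Slc6a17, which loads neutral amino acids into synaptic vesicles (-0.28 ± 0.07), and Slc43a2, a carrier of large neutral amino acids (-0.21 ± 0.07). All 3 fell in DD, by 15.4%, 13.4% and 10.2%, and none of the list was called by limma with length and GC trends removed, where the median was -0.044. None of 11 serine and one-carbon enzymes was called by limma.

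Lipid synthesis genes were below 0 where called. Of 16 fatty acid synthesis genes 4 were called, against 7.02% over all genes, with a list median of -0.13, and 1 with length and GC trends removed. Fasn, the fatty acid synthase, had -0.38 ± 0.08 (adjusted p = 0.00455), Fads1, a desaturase of polyunsaturated fatty acids, -0.21 ± 0.05, Acaca, acetyl-CoA carboxylase, -0.21 ± 0.06, and Scd2, a stearoyl-CoA desaturase, -0.20 ± 0.06. Fasn had medians of 27.1 FPKM (Ctrl) and 28 (-Trp) in LD and 35.9 (Ctrl) and 27.8 (-Trp) in DD, with Ctrl DD the highest of the 4. Of 23 sterol synthesis genes 3 were called, with Srebf2, the transcription factor of the pathway (-0.26 ± 0.07) and the reductase Dhcr7 (-0.19 ± 0.05) among them. For the diet itself, 8 of the 23 were called in LD, against 0.672% over all genes, and 13 in DD, all lower on -Trp, against 6.95% lower over all genes. The median interaction of the list was 0.02, with 13 of 23 estimates above 0, and turned to -0.02 when levels were scaled to the sum of FPKM and without 12 h.

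Synaptic and channel genes were below 0 where called, as were 715 of the 1012 calls over all genes. Of 31 glutamate and GABA receptor genes 13 were above 0, the median was -0.05, and 4 were called, against 7.02% over all genes: Gria1 (-0.21 ± 0.05), Gabbr1 (-0.22 ± 0.05), Grik5 (-0.33 ± 0.08) and Grin1 (-0.21 ± 0.07), subunits of AMPA, GABA-B, kainate and NMDA receptors. Gria1 ranged from 77.8 to 96.5 FPKM (Ctrl) and 74.6 to 103 (-Trp) in LD, and from 93.4 to 114 (Ctrl) and 82.7 to 102 (-Trp) in DD, and fell by 10.9% in DD (adjusted p = 8.74e-04). The DD libraries overlapped between the diets. With length and GC trends removed 2 of the 31 receptor genes were called, and Gabbr1 and Grin1 lost their call (adjusted p = 0.115 and 0.334). Without the 3 libraries high in cortex and striatum markers the receptor median was 0.0047, with 16 above 0 and 3 called below 0. When single libraries were left out in turn, Grin1 lost its call in 40 of 72 fits. Of 38 voltage-gated and related channel genes 4 were called, with a list median of -0.16, which was -0.066 with 1 called when length and GC trends were removed. Among them were the potassium channel Kcnk2 (-0.36 ± 0.08) and the T-type calcium channel Cacna1i (-0.25 ± 0.08). The median length of these channel transcripts was 8067.5 bases, against 3358.5 over all genes tested.

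Genes of the ribosome and of oxidative phosphorylation lay mostly above 0, while the share called was below the 7.02% of all genes. Of 78 cytosolic ribosomal protein genes 77 had an estimate above 0, with a median of 0.17, and 4 were called: Rpl34 (0.36 ± 0.10), Rpl13 (0.31 ± 0.09), Rps16 (0.28 ± 0.08) and Rpl17 (0.24 ± 0.08). Over all genes 7723 of 14425 were above 0. In DD 65 of the 78 rose with the diet and none fell, against 7.56% of all genes higher, and in LD none was called by limma. The 65 became 10 without 12 h, 11 without 4 h and 43 with length and GC trends removed. Rpl13 ranged from 487 to 832 FPKM (Ctrl) and 489 to 915 (-Trp) in LD, and from 257 to 390 (Ctrl) and 326 to 496 (-Trp) in DD, and rose by 24% in DD (adjusted p = 0.00152). Reads of ribosomal protein genes can be shared with processed pseudogenes, so single genes are uncertain. Of 82 oxidative phosphorylation genes 70 were above 0 and 4 were called, Atp5s, Sdhd, Ndufc2 and Ndufv2, with interactions of 0.15 to 0.25 and a list median of 0.12. In DD 25 rose, 3 without 12 h, 6 without 4 h and 6 with length and GC trends removed. These lists have short transcripts, with medians of 1076.5 and 1005 bases. With length and GC trends removed the medians were 0.08 and 0.008, with 3 and 0 genes called.

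Of 70 splicing factors 1 was called above 0, Rbm48 (0.18 ± 0.05), and 5 below 0, the 3 of smallest p being Sf3a1 (-0.26 ± 0.06), U2af2 (-0.12 ± 0.03) and Sf3b2 (-0.15 ± 0.04), which serve recognition of the 3′ splice site and branch point. Among 23 heat shock and chaperone genes the cytosolic Hsp90ab1 was called (-0.19 ± 0.05), and among 27 histone genes Hist1h4h (0.60 ± 0.19). None of 9 cold-inducible genes and CLK kinases was called by limma, and none of 3 targets of the aryl hydrocarbon receptor.

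**Figure D4:**
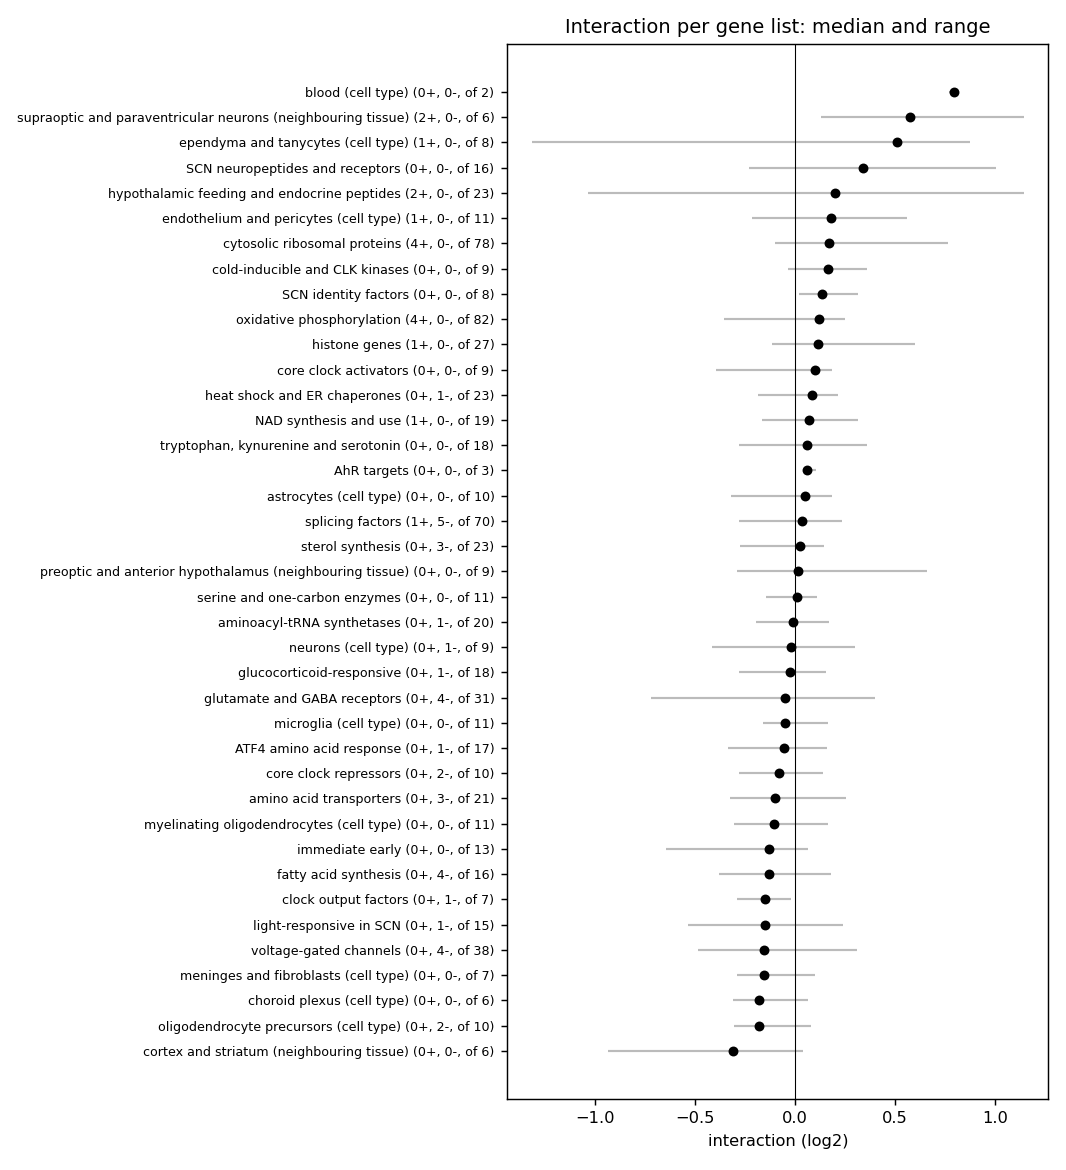
Interaction on the log2 scale (horizontal axis) for each gene list, with a point at the median and a line from the lowest to the highest member; the numbers beside each name count genes called above 0 (+) and below 0 (-) and genes tested. Medians run from -0.31 for cortex and striatum markers (6 genes) to 0.79 for blood markers (2 genes).

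Markers of other cells were followed with the same measure. Of 10 markers of oligodendrocyte precursors 2 were called below 0, Cspg4 (NG2, -0.29 ± 0.07) and Gpr17 (-0.28 ± 0.08), and the median was -0.18. With length and GC trends removed none of the 10 was called by limma and the median was -0.14. Cspg4 was then at -0.11 (adjusted p = 0.295) and Gpr17 at -0.18 (adjusted p = 0.144). Both also lost their call when 4 or 12 h was left out. Gpr17, a receptor of precursors that are committed to differentiate, fell in both light conditions, by 16.3% in LD (adjusted p = 0.00603) and by 31.2% in DD (adjusted p = 8.39e-11). It ranged from 10.8 to 17.4 FPKM (Ctrl) and 7.85 to 16.2 (-Trp) in LD, and from 12 to 17.1 (Ctrl) and 7.49 to 12.6 (-Trp) in DD. The summed level of the list had medians of 146 FPKM (Ctrl) and 145 (-Trp) in LD and 107 (Ctrl) and 93.5 (-Trp) in DD. No marker of myelinating oligodendrocytes, astrocytes or microglia was called by limma (Mag, of myelin, -0.31 ± 0.16, adjusted p = 0.205). Of 9 neuronal markers Rbfox3 (NeuN) was called (-0.41 ± 0.11, adjusted p = 0.0173), with -0.27 without the 3 libraries high in cortex and striatum markers (adjusted p = 0.016). Their sum had medians of 1593 FPKM (Ctrl) and 1656 (-Trp) in LD and 1135 (Ctrl) and 1140 (-Trp) in DD.

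Rarres2, 1 of 8 markers of ependyma and tanycytes, was called (0.59 ± 0.19, adjusted p = 0.0427), and the median of that list was 0.51, with 5 of the 8 above 0 and the lowest at -1.32. Without the 3 libraries high in cortex and striatum markers Rarres2 was at 0.37 and lost its call (adjusted p = 0.0902), and the median was 0.26. The list's summed level ranged from 59.7 to 193 FPKM (Ctrl) and 106 to 194 (-Trp) in LD, and from 76.4 to 130 (Ctrl) and 95.3 to 167 (-Trp) in DD. Slco1a4, an organic anion carrier of brain endothelium, was called as 1 of 11 vascular markers (0.56 ± 0.18, adjusted p = 0.0462). It fell by 29.7% in LD (adjusted p = 0.0374), with a DD effect of 3.73% (adjusted p = 0.811). The part of these cells in the called genes was not tested.

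Some genes responded to the diet in the same direction in LD and DD. Phyhd1, a dioxygenase related to phytanoyl-CoA hydroxylase, rose by 49.1% in LD (adjusted p = 3.21e-08) and by 71% in DD (adjusted p = 2.35e-13). Its interaction of 0.20 ± 0.09 did not pass (adjusted p = 0.175), and the 95% interval, unadjusted, ran from 0.01 to 0.39. It was 0.12 without the 3 libraries high in cortex and striatum markers. Cyp4f15, a fatty acid hydroxylase, rose by 31.5% and 46.6%, with an interaction of 0.16 ± 0.09 (interval -0.02 to 0.33). Sult1a1, a sulfotransferase of phenols, rose by 94.1% and 79%, with an interaction of -0.12 ± 0.20 (interval -0.51 to 0.28). For 2900052N01Rik, a gene of unknown role, both effects were positive and differed: it rose by 30.9% in LD and 73.9% in DD, with an interaction of 0.41 ± 0.12 (adjusted p = 0.0295).

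The interaction was not called evenly over the day. Fitted at single times, 751 genes were called at 12 h (5.21%), 345 above 0 and 406 below 0, and none at the other 5 times by limma. The count at 12 h depended on single libraries, of which there are 3 in each group. It was 301 without Ctrl DD 12 h replicate 1, which was high in cortex and striatum markers, 84 above 0 and 217 below 0, and 477 without all 3 libraries high in them. Without replicates 1, 2 and 3 of Ctrl LD at 12 h it was 230, 222 and 268, and without those of -Trp LD it was 2173, 66 and 185. Without Ctrl DD replicates 2 and 3 it was 1604 and 1775, and without -Trp DD replicates 1 and 3 it was 386 and 98. At an unadjusted p under 0.05 there were 616 genes at 0 h, 1760 at 4 h, 839 at 8 h, 3602 at 12 h, 222 at 16 h and 1201 at 20 h. Averaged over 0, 4 and 8 h, 309 genes were called (2.14%), and over 12, 16 and 20 h, 577 (4%). The difference between these averages was itself called for 101 genes. A test of any change of the interaction with time called 9 genes (0.0624%), with 956 at an unadjusted p under 0.05.

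The 3 genes of smallest p in that test, Tmem50a, Larp7 and the pseudogene Oaz1-ps (adjusted p = 0.0315 each), had interactions above 0 at 0, 4 and 8 h and below 0 at 12, 16 and 20 h. Tmem50a, a small membrane protein, had 0.50 ± 0.14 at 4 h and -0.61 ± 0.14 at 12 h. Larp7, which binds the 7SK RNA, had 0.51 ± 0.14 at 4 h and -0.57 ± 0.14 at 20 h. Oaz1-ps had 1.05 ± 0.32 at 8 h and -0.89 ± 0.32 at 20 h. None of the 3 was called by limma in the average over times.

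Without the 12 libraries of 12 h, 156 genes were called, 31 above 0 and 125 below 0, of which 148 were among the 1012. Without those of 4 h, 160 were called, 26 above 0 and 134 below 0, of which 157 were among the 1012. Leaving out another time gave 583 to 1060 genes. The 10 leading genes below 0 passed without 12 h, with adjusted p-values of 0.0327 to 0.0423, and without 4 h, with 0.0209 to 0.0372. Of the 10 above 0, Creg1, Znhit3, Dnajc24, Tbp and Coa6 lost their call without 12 h (adjusted p = 0.0504 to 0.0942), and Coa6 and Itm2b without 4 h (adjusted p = 0.0606 and 0.0921). Of the 71 called genes named here, 48 lost their call without 12 h and 46 without 4 h. No ribosomal protein and no oxidative phosphorylation gene passed without 12 h, and the list medians were then 0.17 and 0.10.

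**Figure D5:**
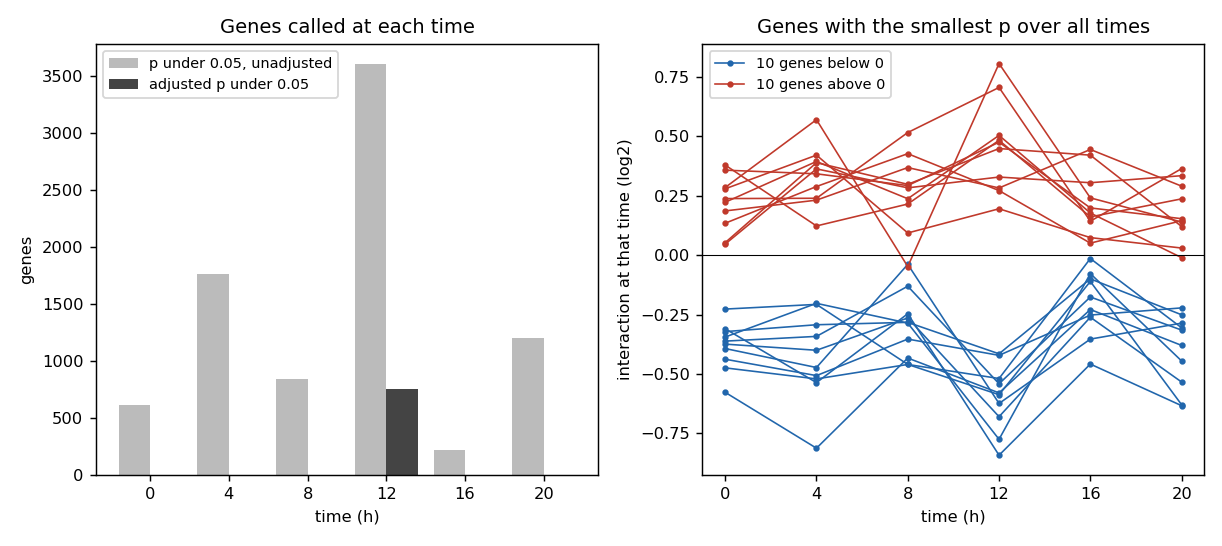
Left, number of genes (vertical axis) with an interaction at each time (horizontal axis, h), at an unadjusted p under 0.05 in grey and at an adjusted p under 0.05 in black, with 751 of the latter at 12 h. Right, interaction at each time on the log2 scale for the 10 genes of smallest p below 0 (blue) and above 0 (red).

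With the columns grouped by their names instead, 11099 genes had an interaction (76.9%), 5788 above 0 and 5311 below 0, while no gene had an average diet effect by limma (582 at an unadjusted p under 0.05). Of the 1012 genes, 255 were then called in the same direction. In that grouping, Ctrl LD held 6 libraries of the lower and 12 of the higher range of summed FPKM, Ctrl DD 12 and 6, -Trp DD 18 of the higher range, and -Trp LD 17 of the lower range and the one at 411944. The direction of single genes depended on the grouping: of the 10 leading genes below 0, 9 turned above 0 (all but Kdm4b), Dlg4 to 0.76 and Pygm to 1.06, and of the 10 above 0, Gm16702, Dnajc24 and Tbp turned below 0.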

How the data were processed

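RNA of the SCN was measured in 72 libraries (TRIzol, stranded mRNA kit). The authors trimmed reads with Trimmomatic, aligned them to mm10 with TopHat and deposited FPKM values per gene from Cufflinks, per the labels and the submitters' processing notes; versions are not given in the sources used here. The 4 tables hold no counts, so the depth is unknown.

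FPKM values were scaled by median-of-ratios factors (0.902 to 1.07) over the 72 libraries and log2-transformed after adding 0.5. The 14425 of 24883 rows whose mean reached 0.5 FPKM were tested with limma 3.58.1 in R 4.3.3, with diet, light, their interaction and time as a factor, and Benjamini-Hochberg adjustment over all genes tested. The names of the groups came from the labels. The group and time of each library came from the column order of the supplementary table and not from its column name. Interactions at single times came from 24 cell means. Where nothing ties a value to single animals beyond the labels, p-values measure the spread between libraries. Tested on simulated data with 14425 genes, interactions of 0.25 and 0.5 were called for 42% and 87% of changed genes, with 7 false calls among 136. The simulated noise was normal and independent between genes and libraries, with the residual spread of each gene. It held no length or GC trends within single libraries and no outlying libraries. Its share of false calls therefore does not carry over to the genes called in the measured data.

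Replicate numbers were not used to pair the libraries in the main fit. Of 36 pairs, 18 had correlated deviations over 0.1 (median 0.10, range -0.47 to 0.62), which leaves a pairing undecided. Named genes were those with the 10 smallest p in each direction, the 5 largest estimates, up to 4 called members of each list or the 2 of smallest p where none was called, 3 each for the diet effects and the time test, and Timeless; repeated symbols were not named, and some genes that meet the rule are not reported here. The genes and lists were chosen with earlier results of these data known. Alternatives were pseudocounts, scalings, filters, a replicate block, other models and weights, columns as named and leaving out each library. Chosen after seeing the data were removal of length and GC trends, leaving out each time, leaving out 3 libraries high in cortex and striatum markers, and all alternatives for the count at 12 h. Promoter sequences and transcript properties came from RefSeq (GRCm38.p6) and GENCODE M21.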

Additional observations from a re-analysis of the deposited data

Results flagged for a closer look

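The 71 genes below are the genes named in the text for which the test of the interaction passed (limma, adjusted p under 0.05). They are a part of the 1012 genes that passed, named by the rules given above with earlier results of these data known. With length and GC trends removed, 46 of the 71 lost their call. The values are interactions on the log2 scale.

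Below 0, the interaction was Pcdhgc5 -0.67, Wfs1 -0.64, Phactr1 -0.61, Sipa1l1 -0.59, Ngef -0.58, Pcdhga11 -0.50, Map1a -0.50, Dlg4 -0.42, Rbfox3 -0.41, Hk1 -0.38, Fasn -0.38, Crtac1 -0.37 and Pygm -0.37. Next in size were Ephb1 -0.36, Kcnk2 -0.36, Grn -0.36, Grik5 -0.33, Slc36a1 -0.33, Cnnm1 -0.31, Cspg4 -0.29, Slc6a17 -0.28, Gpr17 -0.28, Per1 -0.28, Kdm4b -0.28, Chac1 -0.27 and Cry2 -0.27. After these came Srebf2 -0.26, Sf3a1 -0.26, Cacna1i -0.25, Gabbr1 -0.22, Acaca -0.21, Gria1 -0.21, Slc43a2 -0.21, Fads1 -0.21, Grin1 -0.21, Scd2 -0.20, Dhcr7 -0.19, Hsp90ab1 -0.19 and Wars -0.18. Smaller still were Tef -0.17, Sf3b2 -0.15 and U2af2 -0.12.

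Above 0, it was Mir6340 4.85, Oxt 1.14, Gm8773 0.90, Crh 0.86, Ucn3 0.82, Hist1h4h 0.60, Rarres2 0.59, Slco1a4 0.56, 2900052N01Rik 0.41, Gm16702 0.37, Rpl34 0.36, Coa6 0.33 and Nadsyn1 0.31. Next in size were Rpl13 0.31, Znhit3 0.30, Tmem216 0.30, Dnajc24 0.29, Psmd10 0.28, Rps16 0.28, Tbp 0.27, Creg1 0.25, Ndufc2 0.25, Rpl17 0.24, Ndufv2 0.24, Rab33b 0.22 and Atp5s 0.22. After these came Itm2b 0.18, Rbm48 0.18 and Sdhd 0.15.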

How the results depend on the processing

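The count of 1012 genes with an interaction was 703 to 1402 when each library was left out in turn, lowest without -Trp DD 20 h replicate 1 and highest without Ctrl DD 0 h replicate 1. The same fits gave 73 to 178 genes for the effect in LD, 1445 to 2659 in DD, 391 to 747 on average, 0 to 21 by time of day, 96 to 601 over 0, 4 and 8 h, 233 to 1081 over 12, 16 and 20 h, 66 to 2173 at 12 h and 10986 to 11327 for columns as named. Of the 71 genes with a call named here, 17 lost it in at least 1 of these fits and none changed direction.

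The replicate block gave 1009 genes, 989 of them among the 1012, and changed no call of the 71. Whether the replicate numbers pair the libraries is undecided. Pseudocounts of 0.1 and 1, other filters, time within each light condition, cell means, a trended prior and leaving out -Trp DD 4 h replicate 2 gave 814 to 1110. With values as deposited 721 were called, 38.0% above 0, and with scaling to the sum of FPKM (TPM) 1095, 14% above 0, against 29.3%. By TPM the shares above 0 were 25.5% in LD, 14% in DD and 11.4% on average, and as deposited 25%, 42.9% and 20.3%, against 44.3%, 52.1% and 51.0%. TPM also gave 17 genes by time of day and 144 over 0, 4 and 8 h, 57.6% above 0, against 74.0% as deposited and 39.8%, and 24.1% above 0 over 12, 16 and 20 h against 41.6%. At 12 h TPM gave 468 genes, 29.7% above 0, against 45.9%. Columns as named gave 58.4% above 0 as deposited and 21% by TPM, against 52.1%. Array weights gave 1671 interactions, 319 genes in LD, 3639 in DD and 1633 on average.

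With length and GC trends removed, 278 genes had an interaction, 1285 an effect in DD, 24 a change by time and 105 an interaction over 0, 4 and 8 h, and 46 of the 71 lost their call. Without 0 h the interaction was called for 583 genes and the LD effect for 55. Without 4 h there were 160 interactions, 38 effects in LD, 662 in DD and 218 on average. Without 8 h the LD effect had 62. Without 12 h there were 156 interactions, 669 effects in DD and 219 on average. Without 16 h there were 56 in LD, 1284 in DD and 167 on average, and without 20 h 667 interactions and 62 in LD. Fits without a time hold fewer libraries. Without the 3 libraries high in cortex and striatum markers there were 163 effects in LD, 802 on average and 477 interactions at 12 h. The cause of these shifts was not tested.

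With columns as named there were 11099 interactions, 9589 effects in LD, 9780 in DD, 0 on average by limma (582 unadjusted), 9434 by time of day, 11568 over 0, 4 and 8 h, 6834 over 12, 16 and 20 h and 9575 at 12 h, and with 16 and 20 h alone 0. In that grouping the interaction had the other sign, at Dlg4 0.76, Pcdhga11 0.11, Pygm 1.06, Hk1 0.73, Grn 0.55, Ephb1 0.53, Cnnm1 0.44, Crtac1 0.36, Map1a 0.27, Gm16702 -0.30, Dnajc24 -0.0541, Tbp -0.49, Pcdhgc5 0.14, Wfs1 0.20, Phactr1 0.78, Ngef 0.39 and Gm8773 -1.20. Also of the other sign were Cry2 0.18, Npas2 0.22, Fasn 0.0542, Fads1 0.79, Scd2 0.43, Srebf2 0.31, Dhcr7 0.34, Gabbr1 0.57, Grik5 0.30, Grin1 0.23, Kcnk2 0.11, Cacna1i 0.17, Slc36a1 0.54, Slc6a17 0.41, Slc43a2 0.24 and Wars 0.72. The rest of the other sign were Chac1 1.01, Nadsyn1 -0.58, Maoa -0.33, Avp -0.14, Gpr17 0.36, Rbfox3 0.57, Mag 0.78, Hsp90ab1 0.54, Slco1a4 -1.72, Ppp1r1b 1.69, Sf3a1 0.42, U2af2 0.37, Sf3b2 0.50, Rbm48 -0.12, Phyhd1 -0.31 and Sult1a1 0.43. Timeless turned to 0.029 with length and GC trends removed, to 0.0144 without 12 h and to 0.0199 without 16 h, and Sult1a1 to 0.0286 without 12 h. FPKM without counts do not give depth, which limits low genes most.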
